A study of Mus musculus with 10 samples.

Results

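Unfused graft cells are the red-only (RFP+) cells that were sorted from the midbrain 1 week after bone marrow progenitors had been grafted there, and they were taken by sample title: 4 of the 10 arrays of the series, in 2 sets of 2 replicates. The FoxA2-Cre set came from FoxA2-Cre recipients that had received HSPCs of the R26Y genotype. The pooled set joined cells of R26Y recipients, grafted with Cre/RFP HSPCs, and of GFAP-Cre recipients, grafted with R26Y HSPCs. HSPCs are haematopoietic stem and progenitor cells, here lineage-negative bone marrow cells of donor mice. All recipients had been given MPTP, a toxin of dopaminergic neurons, and were grafted on 1 side over the substantia nigra pars compacta 3 days after its last injection. The other 6 arrays hold RFP+YFP+ hybrids (fused cells) of R26Y, GFAP-Cre and FoxA2-Cre recipients with 2 arrays each. The labels name RFP for the Cre/RFP grafts and do not say how R26Y grafts were made red, so that the red-only cells of the FoxA2-Cre set and of part of the pooled set are graft cells rests on the labels alone. R26Y is a Cre-dependent yellow reporter, and each replicate joined sorted cells of 2 mice. Cre follows the FoxA2 gene of floor plate and dopaminergic neurons in one line and the GFAP gene of astrocytes in another. Ages were not given in the sources used here, and p-values measure only the spread between these pools.

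Haematopoietic progenitors that lose their stem cell programme pass through precursors that fill granules with enzymes such as myeloperoxidase, and then become neutrophils, monocytes or other blood cells. Neutrophils make granule proteins early and late in their maturation, monocytes can become macrophages in tissue, and all of these cells carry the phosphatase CD45, encoded by Ptprc. Microglia, the resident macrophages of the brain, share many genes with monocytes.

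The value used throughout is the percentile of a probe's processed signal among all non-control probes of its own array, from 0 to 100. A percentile compares 1 probe between arrays. It does not compare 2 genes with each other, because brightness also depends on the probe's own sequence. Medians of lists given below carry the same limit and are positions on the array, not levels of expression. Where it matters, a 30-base stretch of the 60-base probe is shown 5′ to 3′ with the mm9 position of the whole probe. The first 3 stretches belong to probes among the brightest of all arrays, and the last 3 to the genes that mark the cells. Capitals mark bases that lie in a run of at least 20 bases also present in a probe of another gene.
Hemgn: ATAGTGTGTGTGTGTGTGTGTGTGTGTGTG
Itgam: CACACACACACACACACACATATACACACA
Snap25: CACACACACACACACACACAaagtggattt
Mpo: gaaggacggaggccattggccttcctgtgc
S100a9: gtctaaagggaatggcttactcaatggcct
Ptprc: gaggaaccagaacatgctgccaatggttct
The Hemgn probe lies at chr4:46407248-46407307 on the minus strand and the Itgam probe at chr7:135261755-135261814 on the plus strand. The Snap25 probe lies at chr2:136607709-136607768 on the plus strand, and the Mpo probe at chr11:87617840-87617899 on the plus strand. The S100a9 probe lies at chr3:90496573-90496632 and the Ptprc probe at chr1:139961083-139961142, both on the minus strand. Hemgn encodes a nuclear protein of blood cell precursors, Itgam the integrin CD11b of myeloid cells and Snap25 a protein of synaptic vesicle release.

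The 4 arrays did not carry the same depth of signal. Of the non-control spots, 49.2% and 34.8% were well above background on FoxA2-Cre replicates 1 and 2, against 82.8% and 86.7% on the pooled replicates. The lowest percentile that still stood well above background was 42.0 and 55.9 on the FoxA2-Cre arrays and 14.3 and 9.06 on the pooled arrays. On the hybrid arrays it was 54.1 and 76.5 for FoxA2-Cre, 32.9 for R26Y replicate 2 and 13.3 to 15.7 for the others. The scanner software had put a stand-in value in place of the signal on 22.0% and 33.4% of spots of the FoxA2-Cre arrays and on 5.86% and 3.99% of spots of the pooled arrays. All FoxA2-Cre arrays of the series lay on 1 slide and all other arrays on another, so recipient set, graft genotype and slide cannot be told apart. The number that the deposited array data of FoxA2-Cre unfused replicate 2 carry in their name is the one the labels give to R26Y hybrid replicate 2. Their ranks correlated at 0.704 (Spearman's correlation over 55523 probes), close to the 0.696 between the FoxA2-Cre replicates. The sample is called FoxA2-Cre replicate 2 here as labelled, and the count of genes that passed the test between the sets is also given without it. In bulk samples, fewer cells of a type and less RNA per cell cannot be told apart.

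The replicates of the 2 sets held together to very different degrees. The pooled replicates correlated at 0.947. FoxA2-Cre replicate 1 correlated at 0.758 with R26Y hybrid replicate 2, higher than with its own replicate, and at 0.688 and 0.684 with the pooled arrays. Pooled replicate 2 correlated at 0.965 with R26Y hybrid replicate 1, also above its own replicate. Among the 29827 genes tested, the median gap in percentile was 9.39 points between the FoxA2-Cre replicates, 3.40 points between the pooled replicates and 10.1 points between the means of the sets. The gap between the sets exceeded both replicate gaps in 45.5% of genes.

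**Figure D1:**
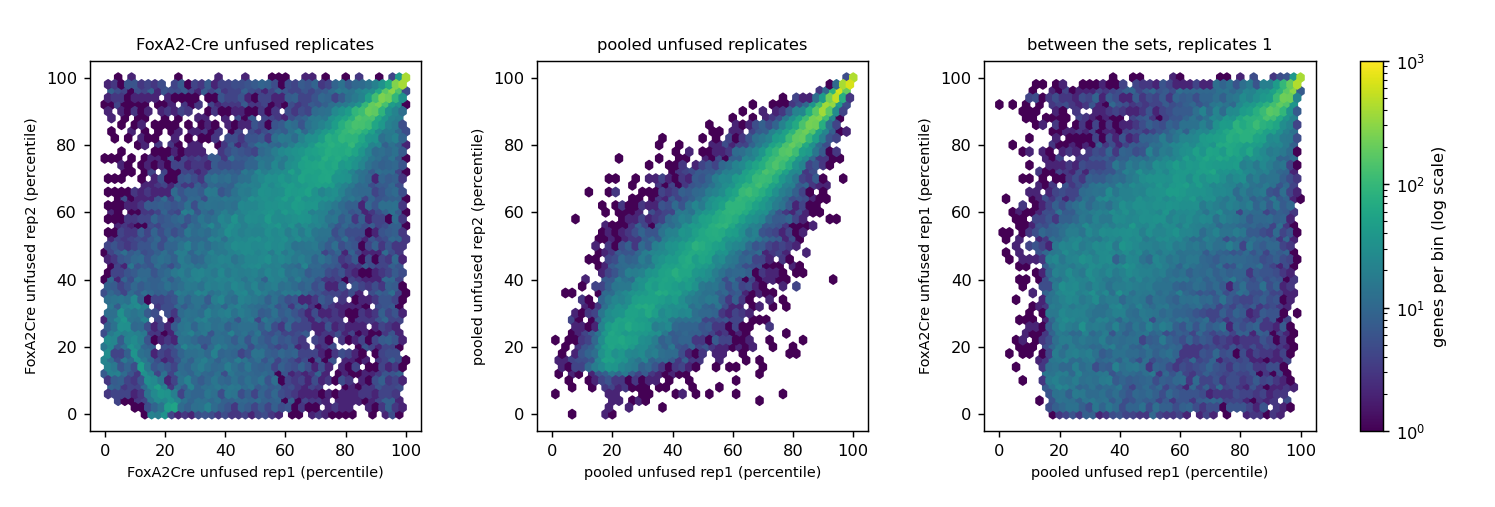
Percentile of each gene tested on one array against another, with colour for the number of genes per bin on a log scale. The FoxA2-Cre replicates spread over the whole square (median gap 9.39 points), the pooled replicates lie along the diagonal (3.40 points), and a falling streak at low percentiles of the FoxA2-Cre arrays holds probes with stand-in values.

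Stand-in values held no reproducible order of genes on the FoxA2-Cre arrays. Over the 8333 probes with a stand-in value on both FoxA2-Cre arrays, the ranks of the replicates ran in opposite directions (Spearman's correlation -0.638), whereas over all other probes it was 0.637. Those ranks followed the position of the spot on the array. Their correlation with the spot column was 0.883 on replicate 1 and -0.548 on replicate 2, against 0.140 and -0.136 for spots well above background. The highest stand-in values lay at the percentiles 24.6 and 35.1. A gene below background on both arrays of a set therefore has only a bound, written below as at least so many percentile points.

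The genes that ranked highest on all 4 arrays did not spell out a blood lineage. In the top 1% on every unfused array stood 401 of 34776 genes, 264 of them with a symbol. Of these 401 genes, 341 were also in the top 1% on all 6 hybrid arrays. The median gap between the highest and lowest of all 10 arrays was 0.266 points for the 401 genes, which the choice of genes at the top of the scale keeps small. Most of the brightest probes in unfused cells were thus also the brightest in hybrid cells.

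Many of those probes had sequence in common with probes of other genes. A probe with at least 20 bases in common with a probe of another gene represented 257 of the 401 genes (64.1%), against 8.56% of all genes. The share was 5.49% among genes whose lowest percentile was under 50, 19.6% between 90 and 95, and 75.2% in the highest bin. The most frequent 20-base word among the 401 probes was GTGTGTGTGTGTGTGTGTGT, searched on both strands. It was present for 70 of the 401 genes, or 17.5%, and for the same number among all genes, or 0.201%. All 69 probes with that word and a value on all 10 arrays lay in the top 1% on the 4 unfused arrays, the lowest at 99.3, and on the 6 hybrid arrays. AGGAGGAGGAGGAGGAGGAG was present for 10 of the 401 genes and for no other gene, whereas AAGAAGAAGAAGAAGAAGAA was present for 8 of them and for 39 of all genes.

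**Figure D2:**
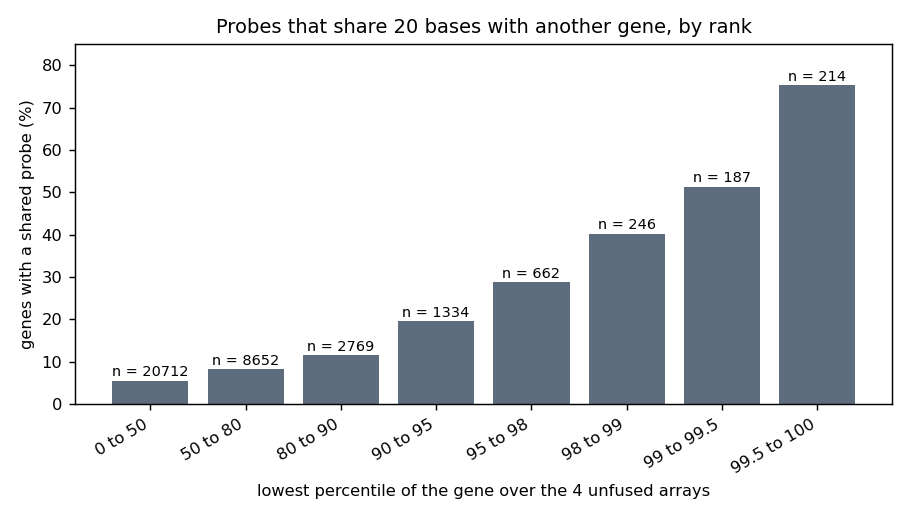
Share of genes whose probe has 20 bases in common with a probe of another gene (bars, in percent), by the lowest percentile of the gene over the 4 unfused arrays. The share climbs from 5.49% in the lowest bin to 75.2% in the highest, and n above a bar is the number of genes in it.

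The 30 genes with a symbol and the highest lowest percentile lay at 99.88 or above on all 4 arrays and at 99.71 or above on all hybrid arrays. A shared probe represented 28 of these 30. Ulk3, a serine/threonine kinase, led with 99.998, 99.982, 99.996 and 99.993 on FoxA2-Cre replicates 1 and 2 and pooled replicates 1 and 2, the order used for all values that follow. Triobp, an actin-binding protein, was the other gene of the 30 with an unshared probe, at 99.98, 99.92, 99.89 and 99.89. Hemgn, the blood precursor gene introduced above, stood at 99.96 on all 4 arrays, and its probe is the repeat shown above. Lhx6, a transcription factor of cortical interneurons, stood at 99.96, 99.96, 99.92 and 99.92. The other 26 were Btnl10, Madd, Sp110, Tacr2, Cep170b, Timmdc1, Zcchc9, Arl6ip6, Exosc2, Hexim2, Sgsh, Ldlrad3, Proser3, Pdcd4, Krt222, Slc8a3, Eya1, Ung, Pak4, Pdzrn3, Dennd4a, Atxn7, Cyp2u1, Ephb3, Glrx2 and Trim25, all with shared probes. No lineage list was used to choose these 30.

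Some blood genes were among the highest-ranked, in a share like that of all genes. Of 158 genes in 12 lists of blood lineages and leukocytes, 2 were in the top 1% on all 4 arrays, Itgam and Ermap. Of all 34776 genes, 401 were. Itgam stood at 99.97, 99.86, 99.75 and 99.80 by the repeat probe shown above, and its best unshared probe at 85.2, 79.9, 86.3 and 89.2. Ermap, an erythroid membrane protein, stood at 99.3, 99.1, 99.3 and 99.3 and at 99.1 to 99.3 on the hybrid arrays. At or above the 90th percentile on all 4 arrays were 12 of the 158 genes, or 7.59%, beside 7.60% of all genes, and 10 of those 12 were there on all 6 hybrid arrays too. Chosen after their values were seen, the 10 included Csf1r, the receptor of macrophage colony-stimulating factor, at 96.7, 96.2, 97.4 and 97.6 with hybrids at 95.9 to 97.6. Cd4, the T helper cell co-receptor, stood at 96.5, 96.9, 97.9 and 97.4 with hybrids at 96.7 to 97.7. Nkg7, a granule protein of cytotoxic lymphocytes, stood at 96.8, 97.1, 98.01 and 97.8 with hybrids at 94.2 to 98.3. For these genes the unfused and hybrid ranges overlapped at a high rank. The other 2 of the 12 were Vwf, the platelet and endothelial adhesion protein, whose hybrids began at 88.5, and S100a9.

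S100a9 and Mpo stood out by contrast with the hybrid cells. S100a9, a calcium-binding protein that neutrophils hold in quantity, ranked at 98.1, 98.5, 94.9 and 93.2 in unfused cells, and at 8.14 to 89.9 (median 64.9) on the hybrid arrays. Mpo, the peroxidase of primary granules, ranked at 96.3, 96.3, 91.5 and 57.2, and at 8.64 to 26.7 (median 22.1) on the hybrid arrays. Neither gene's unfused values overlapped its hybrid values by rank. Mpo was well above background on only 3 of the 6 hybrid arrays, and S100a9 on 4. On the FoxA2-Cre hybrid arrays, Mpo at 8.64 and 9.05 was below background, where the lowest percentiles well above it were 54.1 and 76.5. As 57.2 lies under 76.5, the separation of Mpo is not established there. The unfused values of S100a9 all lay above both bounds. Among the 29827 genes tested, 67 had all 4 unfused arrays above all 6 hybrid arrays, or 0.225%, and 21 had them all below, or 0.0704%. Of the 67 genes, the gap between the lowest unfused and the highest hybrid value was widest for Mpo, at 30.5 points. These counts and gaps take ranks below background as they stood. No test was made of this contrast, in which Lcn2 was the only other blood list gene among the 67. A further Mpo probe stood at 39.2, 22.6, 24.9 and 33.3 and was above background on 2 of the 4 arrays, so the 2 probes of that gene disagreed.

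Ptprc, the marker of all leukocytes, ranked at 81.3, 80.7, 73.6 and 69.8. Its hybrid values ran from 66.7 to 84.1 and overlapped both sets. In the list of 12 leukocyte genes, 7 were well above background on all 4 arrays, and the median percentile was 92.5, 72.4, 73.1 and 63.4. Of all 34776 genes, 13374 were well above background on all 4 arrays, the share beside which each such count of a list below is to be read. Over all genes the median was 57.9, 58.0, 57.4 and 57.4. Fcer1g, the signalling chain of Fc receptors, stood at 97.5, 80.3, 94.8 and 77.8. Arhgdib, a regulatory protein of blood cells, stood at 93.5, 98.3, 95.8 and 94.8. Cd52 and Cd53, membrane proteins of leukocytes, were not well above background on either FoxA2-Cre array. Ptprc, Fcer1g and Arhgdib were thus well above background on all 4 arrays, and Cd53 on none.

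**Figure D3:**
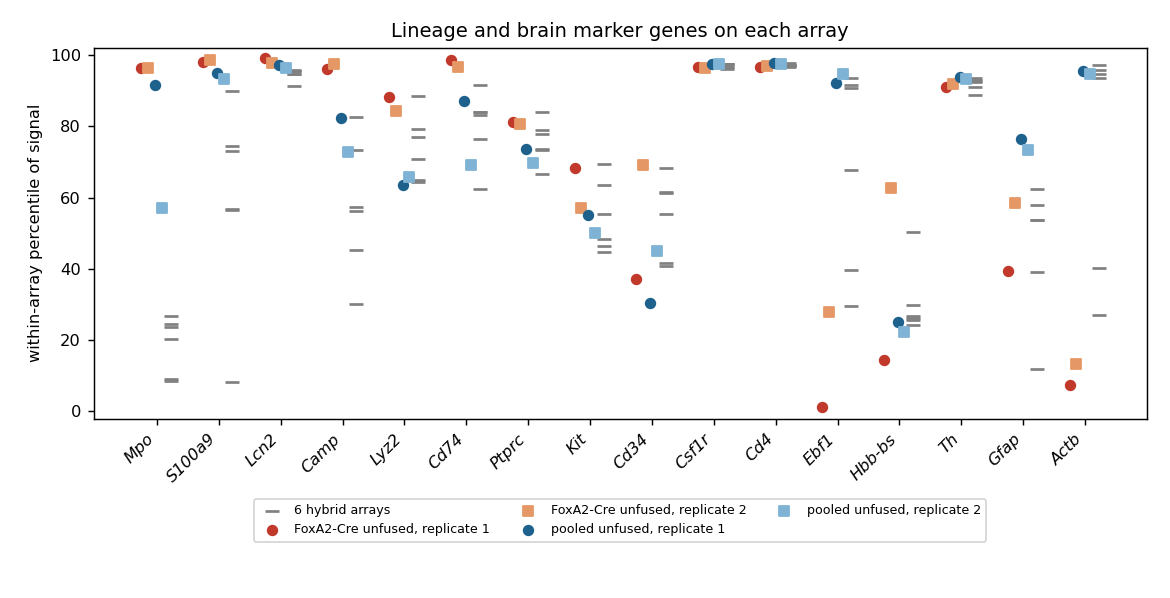
Within-array percentile (0 to 100) of 16 marker genes on each of the 4 unfused arrays (circles and squares) and the 6 hybrid arrays (grey dashes). Mpo and S100a9 lie above all hybrid values on all 4 unfused arrays, Csf1r, Cd4 and Th lie near the top on all 10 arrays, and Actb lies at 7.45 and 13.2 on the FoxA2-Cre arrays. Some hybrid values of Mpo and S100a9 were below background.

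Neutrophil granule genes varied from gene to gene. Of the 8 primary granule genes, 3 were well above background on all 4 arrays, and the list median was 66.0, 64.7, 72.1 and 56.7. Elane, neutrophil elastase, stood at 94.9, 66.7, 84.8 and 56.2, high on replicate 1 of each set. Prtn3, proteinase 3, was higher in the pooled set at 43.7, 50.2, 74.2 and 71.6 and was not above background in the FoxA2-Cre set. Of the 13 secondary and tertiary granule genes, 4 were well above background on all 4 arrays, with medians of 71.2, 42.1, 71.1 and 63.5. Neither granule list exceeded the share of all genes in that count. Lcn2, which sequesters bacterial siderophores, stood at 99.1, 97.7, 97.2 and 96.4, just above its hybrid range of 91.3 to 95.7. Camp, the cathelicidin precursor, stood at 96.1, 97.3, 82.2 and 72.7. Mmp8, neutrophil collagenase, stood at 67.0, 60.4, 93.8 and 93.2. Mmp9, a gelatinase of late granules, was below background on all 4 arrays. Some granule genes were therefore high in both sets, and Camp and Mmp8 ranked in opposite orders between the sets.

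Monocyte and macrophage genes ranked high, with 8 of 15 well above background on all 4 arrays and medians of 81.3, 84.2, 69.0 and 68.9. Their hybrid medians ran as high, from 67.1 to 81.9. Lyz2, the lysozyme of myeloid cells, stood at 88.3, 84.4, 63.5 and 65.6. Fcgr1, a high-affinity IgG receptor, stood at 93.2, 87.5, 69.0 and 68.9. Ccr2, the chemokine receptor of inflammatory monocytes, was below background in the FoxA2-Cre set and stood at 44.5 and 51.6 in the pooled set. Both lie under 55.9, the lowest percentile well above background on FoxA2-Cre replicate 2, so a difference of Ccr2 is not established. Of the 16 microglial genes, 7 were well above background on all 4 arrays, and the list medians of 64.6, 61.8, 62.9 and 60.5 lay close to those of all genes. Cx3cr1, the fractalkine receptor, stood at 98.1, 97.4, 83.6 and 79.0 by a shared probe, and its other probe at 31.7, 7.29, 21.0 and 16.4. Besides Cx3cr1, the 7 were Trem2, Tmem119, Olfml3, C1qa, C1qb and, by a shared probe, Siglech. Trem2, for example, stood at 65.9, 98.2, 73.6 and 60.8, and Olfml3 at 74.3, 74.5, 66.4 and 66.4. P2ry12, a purine receptor that defines resting microglia, was below background on both FoxA2-Cre arrays and stood at 31.4 and 27.4 in the pooled set. Sall1, a defining transcription factor of microglia, was above background on 1 of the 4 arrays.

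Antigen presentation genes had a higher median in the FoxA2-Cre set, as had other lists. Both FoxA2-Cre medians lay above both pooled medians in 9 of the 23 lists. Among them were the astrocyte genes at 61.5, 59.2, 45.1 and 50.4. Medians of the 12 MHC class II and dendritic cell genes were 67.1, 67.1, 54.5 and 45.5. H2-Eb1, a class II beta chain, stood at 94.9, 96.4, 62.4 and 30.9. H2-Aa, a class II alpha chain, was below background in the FoxA2-Cre set and stood at 38.4 and 47.1 in the pooled set. As both lie under 55.9, the limit of FoxA2-Cre replicate 2, a difference of H2-Aa between the sets is not established. H2-Ab1, the class II beta chain that is the partner of H2-Aa, stood at 47.1, 51.7, 83.9 and 43.0. It was also below background on both FoxA2-Cre arrays. Cd74, the invariant chain, stood at 98.5, 96.5, 87.1 and 69.3. Ciita, the class II transactivator, stood at 99.2, 98.996, 98.7 and 98.7 by a shared probe and at 98.02 to 99.1 on the hybrids.

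Stem and progenitor genes ranked in the middle. Kit, the receptor of stem cell factor, stood at 68.4, 57.1, 55.2 and 50.01, and Cd34, a progenitor surface protein, at 37.1, 69.0, 30.5 and 44.9. Each was above background on 3 of the 4 arrays. Of 18 progenitor genes, 7 were well above background on all 4 arrays, close to the share of all genes, and the medians were 69.0, 62.6, 50.3 and 47.5. Spi1, the myeloid transcription factor PU.1, stood at 82.0, 75.8, 55.5 and 50.3. Lmo2, a progenitor transcription cofactor, stood at 96.6, 41.1, 45.5 and 31.7 and was high on 1 array. Gata2, a stem cell transcription factor, was below background on all 4 arrays.

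The lists of other blood lineages follow. The 15 erythroid genes had medians of 49.6, 47.7, 42.2 and 27.4, with 3 well above background on all 4 arrays. Hbb-bt, a beta globin, was below background on all 4 arrays. The 9 megakaryocyte genes had medians of 40.5, 33.2, 41.6 and 15.6. The 14 mast cell, basophil and eosinophil genes had medians of 25.9, 54.9, 56.7 and 55.6. The 13 B cell genes had medians of 52.0, 55.6, 66.8 and 70.7 and the 13 T and NK cell genes 54.2, 72.7, 67.2 and 68.8. Ebf1, a B cell transcription factor, stood at 92.0 and 94.6 in the pooled set, with stand-in values on both FoxA2-Cre arrays. Dntt, the terminal transferase of lymphoid precursors, stood at 89.2, 91.0, 91.0 and 90.1 and at 88.2 to 90.9 on the hybrids.

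Genes of brain cells were measured beside those of blood. Th, tyrosine hydroxylase of dopaminergic neurons, stood at 91.1, 91.8, 93.8 and 93.3 and on hybrids at 88.8 to 93.6. The probe of highest rank for Gfap, the astrocyte filament protein, was below background on both FoxA2-Cre unfused arrays. It stood at 76.3 and 73.4 in the pooled set, above its R26Y and GFAP-Cre hybrid values of 53.8 to 62.4. On the FoxA2-Cre hybrid arrays it was below background at 39.1 and 11.9, where the lowest percentiles well above background were 54.1 and 76.5. As 76.3 and 73.4 lie under 76.5, a separation from the FoxA2-Cre hybrids is not established. A further Gfap probe stood at 54.8, 9.90, 36.1 and 46.0 and was above background on 3 of the 4 arrays, so the probes disagreed. Foxa2, the transcription factor behind the recipient line's name, stood at 71.2, 72.8, 46.2 and 62.4, and its other probe at 18.7, 39.7, 23.2 and 23.3. Neuron genes had medians of 54.2, 54.7, 65.0 and 55.8 and oligodendrocyte genes 55.6, 66.6, 50.04 and 51.7. Of 14 neuron genes, 5 were well above background on all 4 arrays, as were 5 of 11 astrocyte, 5 of 11 oligodendrocyte and 2 of 11 endothelial and pericyte genes, beside 13374 of all 34776 genes. No list of brain cells had all members at background, and the part of such cells in the blood gene levels was not tested.

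**Figure D4:**
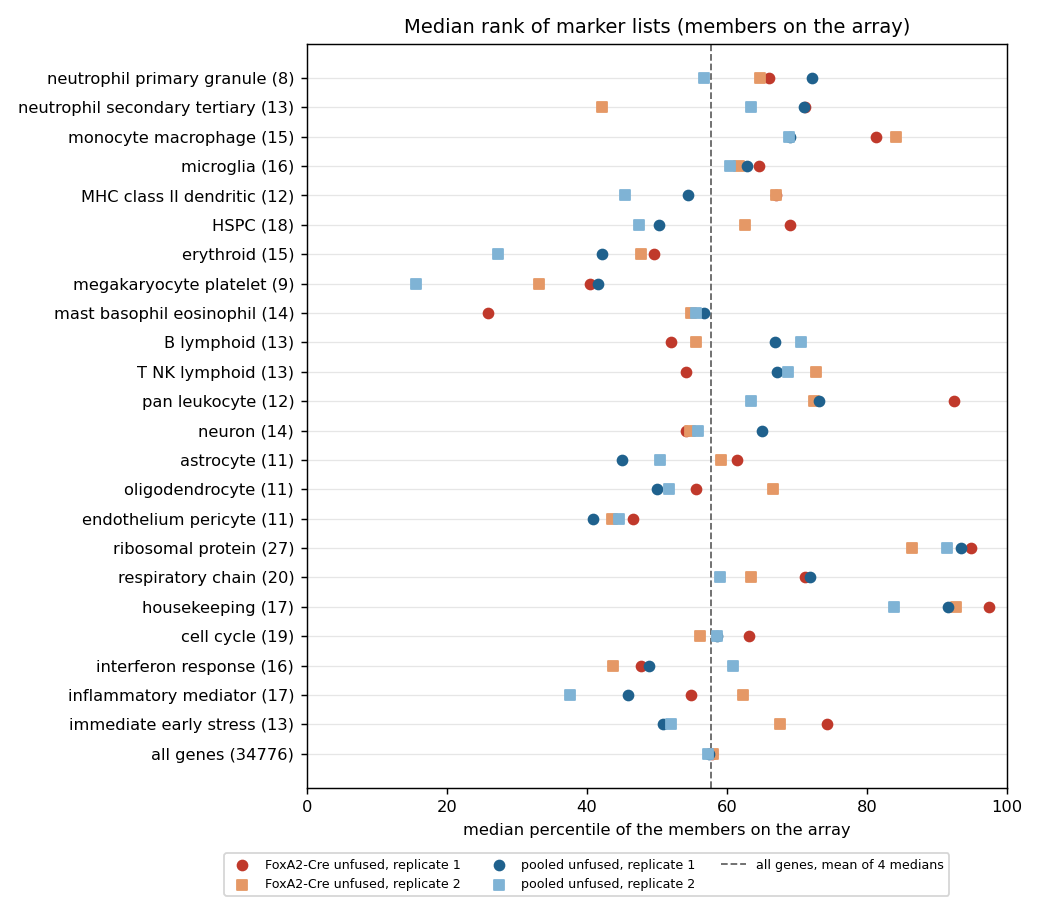
Median percentile of the members of 23 lists and of all genes (bottom) on each unfused array, with the number of members on the array in brackets. Ribosomal protein and housekeeping genes rank highest, monocyte and leukocyte lists lie above the dashed median of all genes on all 4 arrays, and erythroid and megakaryocyte lists lie below it.

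The lists of ribosomal protein and housekeeping genes, used by every cell, had the highest medians on all 4 arrays. The 27 ribosomal protein genes had medians of 94.9, 86.4, 93.5 and 91.5, and the 17 housekeeping genes of 97.4, 92.7, 91.6 and 83.8. Cfl1, the actin-severing protein cofilin, stood at 97.9, 98.5, 98.7 and 98.1. Actb, the beta actin that is a common reference gene, stood at 95.6 and 94.6 in the pooled set with stand-in values on both FoxA2-Cre arrays. The sets differed by at least 46.2 points for a gene that nearly every cell expresses. FoxA2-Cre hybrid arrays had it at 26.9 and 40.3, below background there, and the other 4 hybrid arrays at 93.5 to 97.2. Its low rank was thus common to the FoxA2-Cre arrays of both kinds of cell.

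No gene passed the test of the difference between the sets. By limma with Benjamini-Hochberg adjustment, 0 of 29827 genes, or 0%, had an adjusted p under 0.05, and the lowest adjusted p was 0.0712. At an unadjusted p under 0.05, 3880 genes were higher in FoxA2-Cre, or 13%, and 3674 lower, or 12.3%. Both FoxA2-Cre arrays lay above both pooled arrays for 9127 genes, or 30.6%, and below them for 8566 genes, or 28.7%. Of the genes tested, 8409 were well above background on both pooled arrays and on no FoxA2-Cre array, and 8 the other way. Without FoxA2-Cre replicate 1, 959 genes passed as higher and 2098 as lower, and without FoxA2-Cre replicate 2, 0. A lone array is then assumed to vary like the pooled pair. With genes restricted to the 13374 well above background on all 4 arrays, 350 passed as higher in FoxA2-Cre and 81 as lower. That filter keeps no gene under 42.0 and 55.9 on the FoxA2-Cre arrays, but genes down to 14.3 and 9.06 on the pooled arrays. It leaves less room for lower than for higher genes, so the balance of 350 to 81 cannot show a direction. On the log2 scale with scaling by the 75th percentile, 122 passed as higher and 1447 as lower, and the median of all genes shifted by -0.40 on that scale.

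Among the 12 blood lists, 48 of the 141 members tested were higher in FoxA2-Cre without overlap and 30 were lower, beside 30.6% and 28.7% over all genes. At an unadjusted p under 0.05, 17 members were higher and 17 lower. The median difference of the members was 1.64 points and that of all genes tested 0.00 points. The monocyte list held 6 higher and 5 lower of 14, the B cell list 4 higher and 5 lower of 13, and the progenitor list 7 higher and 2 lower of 17. Mpo was 96.3 ± 0.025 against 74.4 ± 24.3 (SD, n = 2 each), and the difference did not pass (limma, 21.9 points, SE 14.1, adjusted p = 0.443). S100a9 was 98.3 ± 0.299 against 94.1 ± 1.17 and Ptprc 81.0 ± 0.444 against 71.7 ± 2.72 (SD, n = 2 each). Neither passed in limma, with adjusted p = 0.355 and 0.172. For these 3 genes both FoxA2-Cre arrays lay above both pooled arrays.

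The genes of smallest p that were higher in FoxA2-Cre were well above background on both FoxA2-Cre arrays, except Xpnpep2, which was so on 1. Mboat7, an acyltransferase of phosphatidylinositol, stood at 93.7, 94.8, 12.3 and 14.1, and the difference of 81.1 points (SE 2.25) did not pass in limma (adjusted p = 0.0712). All 20 genes of smallest p in the 2 directions had that same adjusted p. Trim30a, an interferon-induced ubiquitin ligase, stood at 93.1, 90.7, 12.9 and 11.55, at least 78.9 points higher. Oasl2, an interferon-induced synthetase-like protein, stood at 93.1, 95.5, 0.174 and 6.34, at least 82.6 points higher. The list of 16 interferon genes, which holds neither, had 4 higher and 7 lower without overlap of 15 tested, beside 30.6% and 28.7% of all genes. Gt(ROSA)26Sor, the transcript of the locus in which R26 reporters are placed, stood at 63.4, 64.8, 12.5 and 14.3. Its 10.1 and 22.9 on the FoxA2-Cre hybrid arrays were below background, where the lowest percentiles well above it were 54.1 and 76.5. They do not show whether it was lower there than in unfused cells. The other 6 were Mlycd, Carf, Cpsf6, Olfr1031, Xpnpep2 and Bin1.

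The genes of smallest p that were lower in FoxA2-Cre were all below background there. They were Olfr1173, Olfr583, Tshz1, Fgl1, Bend3, Plekhf2, Olfr1453, Nsmce2, Actb and Olfr1167, and 7 of the 10 had stand-in values on both FoxA2-Cre arrays. Their close replicate values of, for example, 12.7 and 11.7 for Plekhf2, an endosomal protein, are stand-in values, not signal of that gene. The bounds ran from at least 21.9 points for Plekhf2 to at least 46.2 points for Actb. Of the 3674 genes lower at an unadjusted p under 0.05, 52.6% had a stand-in value on a FoxA2-Cre array, beside 23.7% of all genes tested. Of the 3880 higher genes, 0.232% had one on a pooled array, beside 0.104% of all.

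Where all 4 arrays were above background, the largest differences were these. The filter's lowest percentile is higher on the FoxA2-Cre arrays, so it limits lower differences more than higher ones. Higher in FoxA2-Cre were Mlycd, Synj1, Sirpa, Casc3, Olfr1031, Cd9, Glul, Carf, Rbm25 and Ctbp1, by 60.5 to 79.8 points. Cd9, a tetraspanin of platelets and myeloid cells, stood at 94.6, 96.2, 26.8 and 34.0. Sirpa, an inhibitory receptor of myeloid cells, stood at 96.3, 89.6, 33.5 and 18.9. Glul, the glutamine synthetase typical of astrocytes, stood at 95.7, 95.8, 37.5 and 25.6. Each of these 3 was higher in FoxA2-Cre without overlap and did not pass in limma, with adjusted p = 0.0712 for Cd9 and Glul and 0.0733 for Sirpa. In the limma fit restricted to genes above background on all 4 arrays, Cd9 and Glul passed with adjusted p = 0.0472. That fit has the same uneven filter.

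Lower in FoxA2-Cre with all 4 arrays above background were Uroc1, Olfr1260, Olfr1287, Hao1, Gm14149, Cst13, Gm5445, Gm5528, Acp1 and Hmgb3, by 29.1 to 35.5 points. Hmgb3, a chromatin protein, stood at 69.8, 66.6, 96.8 and 97.7 by a shared probe. Uroc1 and Hao1, metabolic enzymes of the liver, stood at 52.8, 69.0, 96.7 and 96.2 and at 55.8, 67.6, 92.5 and 94.7. None of the 10 passed in limma, with adjusted p from 0.0712 to 0.277.

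**Figure D5:**
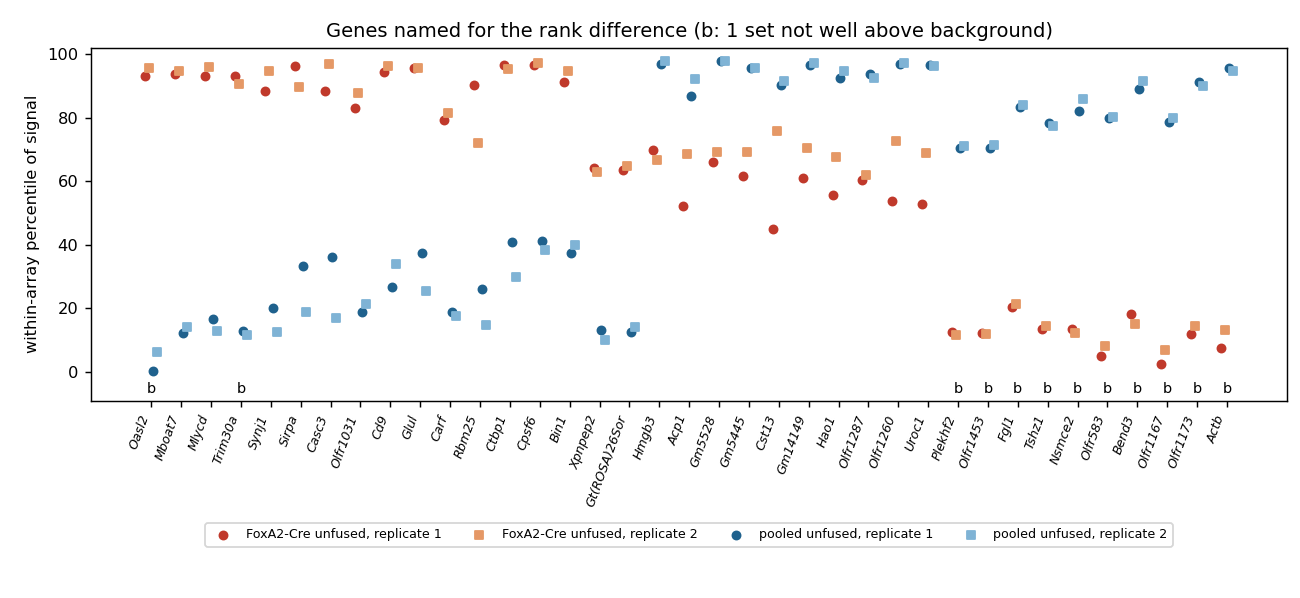
Within-array percentile of the 37 genes named for the rank difference on the 4 unfused arrays, ordered by the difference between the sets, with b under genes that were below background on both arrays of a set. In all 37 the sets do not overlap, and the 10 genes at the right sit below the 25th percentile on both FoxA2-Cre arrays.

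Olfactory receptor genes, chosen for description after these values were seen, made up 6 of the 20 genes named as lower and 1 of the 17 named as higher. Of 973 tested, 46.1% were lower in FoxA2-Cre without overlap and 15.8% higher, beside 28.7% and 30.6% of all genes tested. The 46.1% includes receptors that entered the test through the pooled arrays alone, so it cannot show that receptors were lower. Of the 1093 receptors, 222 were well above background on all 4 arrays, beside 13374 of all 34776 genes. Medians of the 1093 receptors on the array were 42.1, 44.9, 56.9 and 56.6. On the hybrid arrays they were 44.1 and 43.7 for FoxA2-Cre, 43.3 for R26Y replicate 2 and 54.9 to 56.3 for the other 3. Stand-in values on a FoxA2-Cre array were present for 40.4% of the 973, beside 23.7% of all genes tested, and 211 of the 1093 had a shared probe, beside 8.56% of all genes. Their part in the lower medians was not tested.

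Hybrid cells were compared between the same slides. Across the 29827 genes, the difference between the sets in unfused cells correlated with that between FoxA2-Cre and the other hybrid arrays at 0.528 (Pearson) and 0.501 (Spearman), a description across genes that share slides and depth. Of the genes higher without overlap in unfused cells, 33.9% were so between hybrids, against 17.8% of all genes. Of those lower, 23.4% were, against 14.7% of all. All 20 genes of smallest p had the same sign between the hybrid arrays. The share of all genes with the same sign was not counted, so that number cannot show more than the correlation does. The 10 lower genes were below background on the FoxA2-Cre hybrid arrays too. Part of the differences between the unfused sets thus had the same direction between FoxA2-Cre and the other hybrid cells. R26Y hybrid replicate 2, on the slide of the pooled set, was nearer the FoxA2-Cre set for 8 of the 10 lower genes of smallest p. It was so for 2 of the 10 higher genes. Tshz1, for example, stood there at 4.33, where the lowest percentile well above background was 32.9. The part of slide, recipient or depth in these ranks was not tested.

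Single genes also switched between the FoxA2-Cre replicates. Of 4692 genes at or above the 90th percentile on replicate 1, 723 (15.4%) were not above background on replicate 2. Of 4782 such genes on replicate 2, 324 (6.78%) were not above background on replicate 1. Between the pooled replicates the counts were 0 of 4740 and 1 of 4716. With the 50th percentile as the limit, the FoxA2-Cre counts were 507 and 330 and the pooled counts 1 and 1. Ctss, the cathepsin of macrophages and microglia, stood at 98.6, 1.49, 88.7 and 68.1. S100a8, the partner of S100a9, stood at 94.4, 31.8, 88.0 and 81.3. Tyrobp, an adaptor of myeloid receptors, stood at 25.0, 97.5, 76.2 and 79.0. Rpl4, a ribosomal protein, stood at 98.7, 15.1, 94.1 and 77.3. These 4, chosen after their values were seen, were thus at the top on 1 FoxA2-Cre array and at background on the other, while the pooled arrays had them at 68.1 or above.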

How the data were processed

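Amplified cDNA (500 ng, double-stranded, so strand is not kept) was labelled with Cy3 for 1-colour Agilent 8x60K arrays, per the labels' protocols. The deposited tables hold intensities from Agilent Feature Extraction 10.7.3.1, per the file headers, with 0 or 1 marks of other kinds for each spot. The authors also deposited log2 values. Spots of a probe were averaged without non-uniform ones, and the processed signal was ranked within each array. A gene took its probe of highest mean percentile. Of 55681 probes, 27522 were named by RefSeq accession, 3916 by symbol and 24243 not. Genes well above background on 2 or more arrays were tested with limma 3.58.1 in R 4.3.3 (2 groups of 2, Benjamini-Hochberg, threshold 0.05), tested on simulated data. No spot was saturated, and the number of arrays limits precision. Members and lists were chosen with earlier results of these data known. Named genes are the 30 of highest minimum percentile; per direction, the 10 non-overlapping genes of smallest p and the 10 largest differences above background on all 4 arrays; up to 4 list members by mean and 2 by p; and given markers. Other list members were named after their values were seen. Alternatives are in the closing section.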

Additional observations from a re-analysis of the deposited data

How the results depend on the processing

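The count of genes passing the limma test of the sets depended on the processing. Against 0 in each direction, log2 scaling to the 75th percentile gave 122 higher and 1447 lower in FoxA2-Cre, normexp with quantile normalisation 52 and 328, restriction to genes above background on all 4 arrays 350 and 81, and all 10 arrays with a shared spread 4 and 20. Leaving out each replicate in turn gave 0 to 959 higher and 0 to 2098 lower, all calls without FoxA2-Cre replicate 1. The first 2 scalings shared 350 calls of the same direction, 22.3% of one and 92.1% of the other. The cause was not tested. The restriction to genes above background on all 4 arrays leaves less room for lower than for higher genes. Normal scores, mean signal minus background, the authors' values, no filter, probe means, unshared probes and the slide column as a block gave 0. The replicate number as a block also gave 0 (5788 with unadjusted p below 0.05), and the replicates' deviations correlated at 0.00414 between the sets. That value cannot decide whether the numbers pair the samples, because the FoxA2-Cre deviations include stand-in values that follow spot position. Kit reversed to -0.18 on the log2 scale and Cd34, at -0.61 to 31.3 points with each replicate left out, did so without FoxA2-Cre replicate 2.

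The top 1% held 208 genes on probe means, 145 without shared probes and 1309 at the top 5%, and 405 to 427 with each replicate left out. Those also highest on all hybrid arrays then numbered 167, 115 and 1017, alternatives chosen after seeing the data. The mean list median was higher in FoxA2-Cre for 16 of 23 lists, and for 13 to 17 under the alternatives. Low signal limits the FoxA2-Cre arrays most.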
